A study of Mus musculus with 4 samples.

Results

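Macrophages of the mouse pancreatic islet were chosen by their own transcript counts in 4 single-cell libraries, as the cells in which at least 5 of 8 genes, C1qa, C1qb, C1qc, Lyz2, Tyrobp, Fcer1g, Csf1r and Ctss, had at least 1 unique molecular identifier (UMI, the tag that marks each captured RNA molecule). In these cells the insulin genes Ins1 and Ins2 together also had to give under 10% of the UMIs, and the glucagon gene Gcg and the somatostatin gene Sst under 3% each. The rule kept 390 of 18612 deposited cells (2.10%). All 8 genes were detected in 341 of the 390, 7 of the 8 in 36, 6 in 7 and 5 in 6. The 6 cells with 5 of the genes gave a median of 0.265% of UMIs to MHC class II genes, and the 5 cells with 4 of the genes, just outside the rule, had 0.114%. A further 53 cells held at least 5 of the genes but exceeded a hormone limit. No doublet caller was run. The hormone limits cover insulin, Gcg and Sst only and do not replace one. Among the cells kept, 9 held at least 3 markers of an endothelial, stromal, Schwann, T or B cell list.

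Islets came from C57BL/6 mice with floxed Sel1L alleles (2 libraries, here wild type) or from mice in which these alleles are deleted by Cre recombinase driven by the insulin gene Ins1 (2 libraries, here knockout). Ins1 is active in beta cells, so the deletion is aimed at those and not at macrophages. A Cre-only control was not analysed here. Age was 7 weeks in the sample labels and 5 weeks in the series text. The islets were kept overnight in RPMI medium, dissociated with trypsin and run on the 10x Genomics 3′ assay. The sources do not say whether the 2 libraries of a genotype came from separate animals, so p-values here measure differences against the spread between libraries, which may be technical. SEL1L works with the ubiquitin ligase HRD1 in a complex that clears misfolded proteins from the endoplasmic reticulum (ER). The comparison of genotypes below concerns the macrophage neighbours of the targeted cells.

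Macrophages are the main resident leukocytes of a healthy islet. They sit beside capillaries and beta cells, take up material that beta cells release, and present peptides of it to CD4 T cells on major histocompatibility complex (MHC) class II molecules. The class II dimer is assembled in the ER on the invariant chain, which Cd74 encodes, is loaded with peptide in endosomes with the help of H2-DM, and is switched on in antigen presenting cells by the coactivator CIITA. CIITA binds no DNA itself and is recruited by factors that sit on a pair of promoter elements, the X box and the Y box.

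The class II genes were among the most abundant transcripts of these cells and moved together from cell to cell. The promoters of H2-Eb1, H2-DMb1 and H2-Aa are shown, a choice from the 12 class II pathway genes with a promoter window. Each is the 250 bases before the RefSeq start site (GRCm38.p6), written 5′ to 3′ on the gene's strand, with matches to the X box and to a Y box spelled TGATTGG in capitals (in each sequence with both, the X box is the first run of capitals). H2-Eb1 lies at chr17:34305617-34305866 on the plus strand, H2-DMb1 at chr17:34152941-34153190 on the plus strand and H2-Aa at chr17:34287824-34288073 on the minus strand.
H2-Eb1: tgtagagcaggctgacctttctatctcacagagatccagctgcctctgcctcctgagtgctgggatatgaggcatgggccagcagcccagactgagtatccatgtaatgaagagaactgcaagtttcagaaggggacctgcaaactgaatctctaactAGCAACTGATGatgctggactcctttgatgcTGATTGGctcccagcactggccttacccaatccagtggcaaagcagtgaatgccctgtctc
H2-DMb1: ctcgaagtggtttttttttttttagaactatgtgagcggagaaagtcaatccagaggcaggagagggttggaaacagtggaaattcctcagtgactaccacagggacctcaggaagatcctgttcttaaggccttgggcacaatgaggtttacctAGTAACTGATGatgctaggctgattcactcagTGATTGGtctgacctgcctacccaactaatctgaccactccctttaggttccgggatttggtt
H2-Aa: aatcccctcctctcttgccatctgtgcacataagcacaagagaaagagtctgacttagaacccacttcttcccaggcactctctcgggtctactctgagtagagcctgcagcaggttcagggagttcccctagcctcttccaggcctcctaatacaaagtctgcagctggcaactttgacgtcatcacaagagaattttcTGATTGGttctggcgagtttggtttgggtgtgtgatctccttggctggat

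In H2-Eb1, the class II beta chain gene of the E isotype, the X box began 92 bases and the Y box 61 bases before the start. In H2-DMb1, which encodes a chain of the peptide loading factor, they began 95 and 63 bases before it. H2-Aa, the alpha chain gene of the A isotype, held the Y box 50 bases before the start and no match to the X box searched. Other spellings of the X box were not searched, so H2-Aa may still hold one. On either strand the X box occurred in 0.259% of 32851 promoter windows, the Y box in 7.23% and both in 0.0213%. The matched elements do not overlap. Of 17 genes of the class II pathway, 12 had a window, 8 of them with the Y box and 3 with both, in these spellings. Among those not shown, H2-DMa had neither element in its 2 windows, H2-Eb2 had both, and H2-DMb2, H2-Oa and H2-Ob had the Y box only. A match describes the letters and says nothing about binding in these cells. H2-Ab1 and Cd74 are shown without a promoter.

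Macrophages made up a similar share of every library. They were 129 of 5951 cells (2.17%, exact 95% binomial interval 1.81% to 2.57%) and 118 of 5841 cells (2.02%, 1.67% to 2.41%) in wild type. In knockout they were 84 of 4337 cells (1.94%, 1.55% to 2.39%) and 59 of 2483 cells (2.38%, 1.81% to 3.05%). The knockout libraries lay below and above both wild type libraries, and an exact two-sided permutation test gave p = 1.0, where 0.33 is the smallest p that 2 libraries against 2 allow. Counted among cells outside the beta cell class, the shares were 5.82% and 5.47% in wild type, and 4.09% and 5.01% in the knockout pair (exact permutation p = 0.33), so the order of the genotypes depends on the denominator. The beta cell class was set by its insulin share (at least 20% of UMIs), and this share itself differed by genotype. Its median over beta cells was lower in the knockout libraries (41.0% and 44.8%) than in the wild type ones (68.1% and 68.7%). Whether the limit places more knockout beta cells outside the class was not tested. Intervals here cover counting error only.

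The knockout macrophages held more UMIs per cell. The median macrophage had 10381 and 10588 UMIs (wild type) and 16678.5 and 19127 UMIs (knockout), and the median endothelial cell 6452 and 6600.5 against 10542 and 9669.5. In both cell types the knockout medians lay above those of wild type (macrophages, exact permutation p = 0.33). Beta cells, the most numerous class, overlapped, at 46918, 49891, 45174 and 52399.5 UMIs, wild type first, and the knockout library totals were the lower ones. The summed macrophage counts were still alike, at 1281674, 1249032, 1405664 and 1134822 UMIs, wild type first. Insulin transcripts were 0.681% and 0.741% of the macrophage sum in wild type and 0.175% and 0.174% in knockout. Endothelial cells, which do not make insulin, had 0.670% and 0.822% against 0.362% and 0.169%. The membership rule bounds this share, so it is given as a description.

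**Figure D1:**
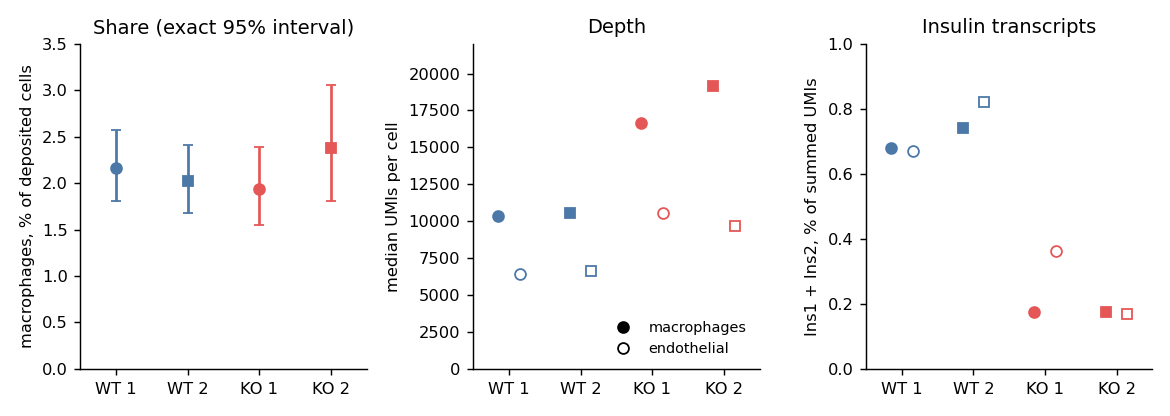
Left, macrophages as a percent of deposited cells in each library with exact 95% binomial intervals. Middle, median UMIs per cell, and right, Ins1 plus Ins2 as a percent of summed UMIs, for macrophages (filled) and endothelial cells (open). Shares run from 1.94% to 2.38%, depth is higher and the insulin share lower in the knockout (KO) than in the wild type (WT) libraries for both cell types.

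The rule genes describe these cells, and their values follow from the rule and carry no test. Among the rule genes, the complement component gene C1qa, whose product opens the classical pathway, had 3286 and 3166 CPM (UMIs scaled to a common library total) in the wild type macrophages and 3546 and 3555 CPM in those of the knockout. Lyz2, the lysozyme gene of myeloid cells, had 5400, 6146, 7367 and 6932 CPM in the same order. Csf1r, the receptor for the survival factor CSF1, was the lowest of the 8, at 340, 338, 392 and 430 CPM.

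Genes beyond the rule are described by their ratio to other cells, with no test. Of genes with at least 100 CPM in the macrophages of every library, the 20 with the highest ratio of macrophage CPM to the CPM of all other deposited cells had ratios from 1131 to 1380. The CPM minimum was set in the macrophages, where these genes are high, and 2 of the 20 are the rule genes C1qb and C1qc. The others included the pan-leukocyte phosphatase Ptprc (CD45), the fractalkine receptor Cx3cr1, the integrin Itgax (CD11c), the Fc receptor Fcgr3, the calcium binding protein Aif1, the matrix metalloelastase Mmp12, and the class II genes H2-Ab1, H2-Eb1 and H2-DMb1. Cx3cr1 was at 378, 396, 447 and 504 CPM, and Adgre1, which encodes the macrophage antigen F4/80, at 123, 129, 147 and 133 CPM. The most abundant transcripts were the ferritin chains Fth1 (4.81% to 8.89% of UMIs over the libraries) and Ftl1 (3.23% to 4.55%), the lipoprotein gene Apoe (2.18% to 3.499%) and the actin binding gene Tmsb4x (1.90% to 2.55%). Cd74 came next at 1.54% to 2.07%.

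The measured markers of lymphocytes and of migratory dendritic cells were at 0 or low. Of the 8 genes of the T and NK cell list only 3 were measured, and Cd3e, Cd3d, Cd3g, Nkg7 and Gzma were not. Trac and Trbc2 were at 0 in every library, and Klrb1c was seen only in the second knockout library, at 2.64 CPM. With these values no macrophage could hold 2 of the list's genes. Cd79a of the B cell list, Ccr7 of the migratory dendritic list and Itgae of the type 1 dendritic list were also at 0. The summed level of the dendritic type 2 and migratory list was 15.6 and 57.6 CPM in wild type and 9.96 and 15.9 CPM in knockout. The type 1 dendritic list summed to 528 to 626 CPM over the libraries, with 6 of its 7 measured genes detected. At least 2 of its genes were held by 314 of 390 cells, and at least 3 by 128. Its highest members were Irf8, a gene that macrophages also express, Cadm1, Batf3 and Wdfy4. Its member Clec9a was at 1.56 and 1.76 CPM in the first wild type and second knockout library. The monocyte list, of which all 5 measured genes were detected, summed to 38.2 and 68.9 CPM in wild type and to 260 and 113 CPM in knockout macrophages, with no overlap, and 18 cells held at least 2 of its genes. It includes Fn1, which gave 221 CPM in the first knockout library, 97.1% of it from 1 cell. The part of these cells in the genotype differences was not tested. Of the endothelial list all 8 genes were detected, at a summed level of 195 and 211 CPM in wild type and 9.96 and 14.1 CPM in knockout macrophages. Stromal genes summed to 105 and 157 CPM in wild type and to 11.4 and 352 CPM in knockout. These levels came from few cells. A total of 9 macrophages held at least 3 markers of an endothelial, stromal, Schwann, T or B cell list. Of these, 3 held at least 5 endothelial markers, 2 in the first and 1 in the second wild type library, and 3 held at least 5 stromal markers, in the second knockout library. Between libraries 35 cell barcodes were shared, and 0 of them among macrophages.

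The 4 class II genes Cd74, H2-Ab1, H2-Eb1 and H2-Aa together took up 3.86% and 4.16% of all wild type macrophage UMIs and 4.13% and 3.71% of knockout macrophage UMIs. In endothelial cells the same genes gave 0.00115% and 0.000961% in wild type, and 0.000752% and 0.00748% in the knockout pair, and in beta cells 0.00181% to 0.00404%. The macrophage libraries of the genotypes overlapped. The wild type mean of the class II sum was 40112 CPM and the knockout mean 39203 CPM, and the difference of -909 CPM lay within the spread between libraries (exact two-sided permutation p = 0.67).

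The invariant chain gene Cd74 was at 19262 and 20671 CPM in wild type and 18228 and 15400 CPM in knockout macrophages. Both knockout libraries lay below both wild type libraries, as they did for 13.9% of the 7580 genes tested. The log2 change was -0.33 ± 0.13 (SE), which did not pass the edgeR quasi-likelihood test (adjusted p = 0.351). H2-Ab1, the beta chain of the A isotype, had 6801 and 7265 CPM in wild type and 8022 and 7776 CPM in knockout, a log2 change of 0.08 ± 0.12 (adjusted p = 0.877). H2-Eb1, whose promoter is printed above, had 6547, 7312, 8014 and 7566 CPM and a change of 0.08 ± 0.13 (adjusted p = 0.878). H2-Aa had 5967, 6399, 7036 and 6364 CPM and a change of 0.03 ± 0.13 (adjusted p = 0.964), with the genotypes overlapping. The chain genes and the invariant chain thus had changes of opposite sign, and none of the 4 passed the test. H2-DMb1, 1 of the 20 genes with the highest ratios, was lower by over an order of magnitude, at 147, 223, 189 and 264 CPM, with a change of 0.19 ± 0.19 (adjusted p = 0.795). H2-DMb1 has a close neighbouring copy, H2-DMb2, and counts of this pair may be split between them.

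**Figure D2:**
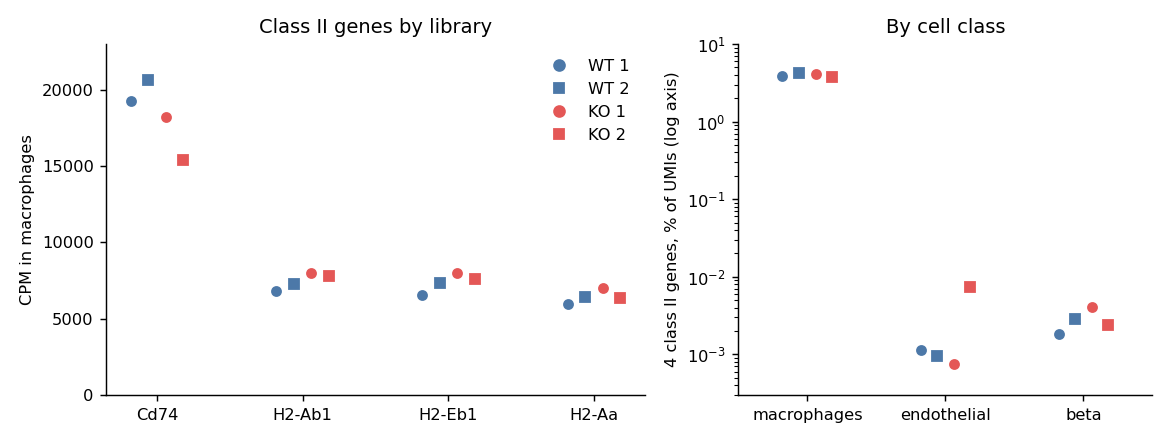
Left, CPM of 4 class II genes in the macrophages of each library. Right, the percent of UMIs from the same genes in macrophages, endothelial cells and beta cells on a log axis; macrophages sit between 3.71% and 4.16%, and every other value is below 0.01%.

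Within each library the class II genes rose and fell together across cells. Over cells with at least 2000 UMIs, the Pearson correlation of log2 values between the 4 genes was 0.74 to 0.98 over all pairs and libraries. These points are cells of 1 library that share depth and the total they are scaled to, so this is a description. For comparison, Cd74 against the ferritin gene Fth1 gave 0.00 to 0.20, Cd74 against Lyz2 gave -0.45 to -0.00, and Cd74 against Apoe gave 0.19 to 0.38. The highest value with a gene outside class II was 0.65, for Lyz2 against Apoe. After thinning each cell to 2000 UMIs, which left out 21 shallower macrophages, Cd74 was detected in 98.3% and 99.1% of wild type and in 98.7% and 100% of knockout macrophages (unthinned 99.2%, 99.2%, 100%, 100%). In endothelial cells thinned in the same way it was detected in 0.625%, 1.72%, 1.86% and 1.83%.

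A minority of macrophages had little class II. The median cell gave 4.01% and 4.23% of its UMIs to the 4 genes in wild type and 3.93% and 3.91% in knockout. Under 1% was seen in 17 and 3 wild type and in 4 and 6 knockout macrophages, 30 in all, and most of the difference between libraries lay in the first wild type library. A total of 11 cells lay between 0.5% and 1%, and 23 between 1% and 2%. The limit of 1% was set after the values were seen. Whether these cells are a type of their own or the low end of a range was not tested.

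The class II low cells were described over pooled libraries with no test. Folr2, the folate receptor found on perivascular and other long-lived macrophages, had 246 CPM in the 30 cells and 3.41 CPM in the other 360. F13a1, the coagulation factor XIII chain of the same kind of macrophage, had 102 against 0.639 CPM, and the platelet factor 4 gene Pf4 had 2790 against 365 CPM. The mannose receptor gene Mrc1 had 104 against 36.6 CPM, although in the first knockout library it was lower in them, at 26.8 against 38.3 CPM. Of the 30 cells 17 are from 1 library, which weighs most in these pooled values. Lower in them when pooled were Cx3cr1 at 126 against 454 CPM (lower in each library), Itgax at 42.8 against 182 CPM (but higher in the second wild type library, at 205 against 140 CPM), the acid phosphatase Acp5 at 58.8 against 488 CPM and the cytokine Il1b at 16.0 against 272 CPM. C1qa was at 1442 against 3544 CPM. Of 6 measured genes of the perivascular or stromal macrophage list, at least 2 were detected in 17 of the 30 cells and in 12 of the 360. Folr2 was higher in the class II low cells of each library, at 294 against 0.0 CPM and 205 against 4.07 CPM in wild type and at 66.9 against 5.26 CPM and 300 against 4.01 CPM in knockout. F13a1 was found in them in the first wild type (91.0 CPM) and second knockout library (183 CPM) and had no UMI in those of the remaining libraries. Their median depth was lower than that of the rest in the wild type libraries (8720 against 10467 and 7178 against 10660 UMIs) and higher in the knockout libraries (19226.5 against 16525 and 19445.5 against 19127 UMIs).

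**Figure D3:**
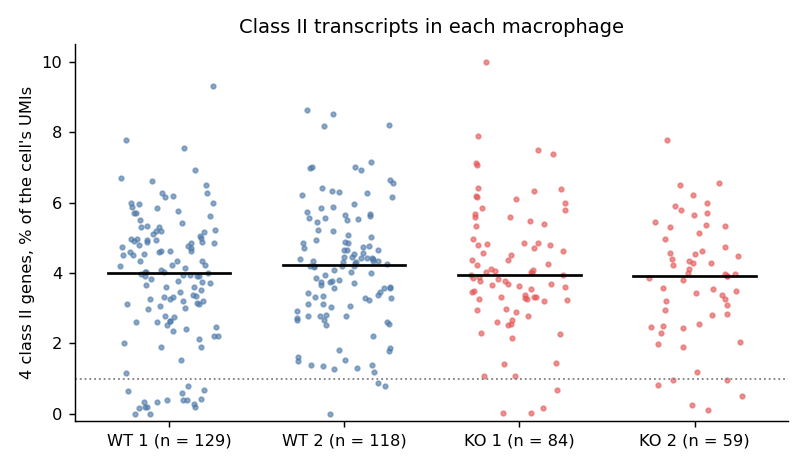
Percent of each macrophage's UMIs from the 4 class II genes, 1 point per cell, by library, with the median as a black line and 1% as a dotted line. Medians lie between 3.91% and 4.23%, and 17, 3, 4 and 6 cells lie under 1%.

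Knockout and wild type macrophages were compared on UMIs summed over the macrophages of each library. Of 7580 genes tested, 74 passed edgeR's quasi-likelihood test at a Benjamini-Hochberg adjusted p under 0.05 (0.976%), 35 higher (0.462%) and 39 lower (0.515%) in knockout. In CPM, both knockout libraries lay above both wild type libraries for 2105 of the genes tested (27.8%) and below them for 1052 (13.9%). A lack of overlap is therefore common. With sums scaled by the number of cells instead, which moves the median of all genes to a log2 change of 0.89, 4902 genes passed, 4879 of them higher, so all changes below are relative to the total RNA counted in the macrophages. Of the 74 genes, 2 were Ins1 and Ins2, which the membership rule limits, and 19 were at least 10 times higher in endothelial cells than in macrophages. Of those 19, 1 still passed without the 9 macrophages that held other cells' markers. In 20 of the 74, 1 cell gave 50% or more of the UMIs of a library of the higher group. Leaving out each gene's highest cell in every library kept 55 of the 74, and DESeq2 called 28 of them. Over all 7580 genes, 773 had an unadjusted p under 0.05 in edgeR's test and DESeq2 called 47. These are the background for the list counts below.

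Among chemokine genes, 3 of 14 tested rose and 0 fell in knockout macrophages, with a median log2 change of 0.25 beside -0.0030 over all genes tested. Ccl6, a chemokine of mouse myeloid cells (GENCODE vM21, GRCm38, chr11:83587882-83593087, minus strand), had 85.0 and 76.9 CPM in wild type and 218 and 312 CPM in knockout, a log2 change of 1.61 ± 0.17 (edgeR adjusted p = 0.000126). Both knockout libraries were above both wild type libraries, and 33.3% and 30.5% of wild type against 59.5% and 62.7% of knockout macrophages had a UMI. Thinned to 2000 UMIs per cell the shares were 10.8%, 10.53%, 29.9% and 27.6%, and no endothelial cell had a UMI. Ccl2 (chr11:82035571-82037453, plus strand), which draws CCR2-bearing monocytes, had 59.3 and 19.2 CPM in wild type and 105 and 176 CPM in knockout, a change of 1.73 ± 0.32 (adjusted p = 0.0139). Endothelial cells also held Ccl2, at 25.3 to 107 CPM. Ccl12 (chr11:82101845-82103400, plus strand), a ligand of the same receptor, had 3.90, 2.40, 24.9 and 30.8 CPM and a change of 3.01 ± 0.42 (adjusted p = 0.00139), from at most 16.9% of cells. The more abundant Ccl4 did not pass, at 605, 595, 699 and 849 CPM (0.28 ± 0.14, adjusted p = 0.537). For Ccl2 the first wild type library took 44.7% of its UMIs from 1 cell. Ccl2 did not pass with library size only, with a mean of at least 20 counts, with 4 markers or after thinning (adjusted p = 0.0561 to 0.171).

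Scavenging and lipid genes moved unevenly. Of 16 genes of lipid handling and the phagocytic state, 1 rose and 1 fell (median -0.02). Msr1, the class A scavenger receptor for modified lipoproteins (chr8:39581685-39642673, minus strand), had 98.3 and 110 CPM in wild type and 223 and 248 CPM in knockout, a log2 change of 1.09 ± 0.15 (adjusted p = 0.00139), with no overlap of the genotypes. Fabp4, a fatty acid binding protein of capillary endothelium and some macrophages, had 154, 100, 23.5 and 22.03 CPM (-2.56 ± 0.23, adjusted p = 2.29e-05). It stood at 1928 to 2480 CPM in endothelial cells, and 1 cell gave 41.4% and 54.4% of its wild type macrophage UMIs. Pltp, the phospholipid transfer protein, chosen after its values were seen, had 64.8, 107, 152 and 233 CPM (1.06 ± 0.22, adjusted p = 0.0298), and without the first wild type library the adjusted p was 0.075. Apoe had 25364 and 34994 CPM in wild type and 22200 and 21756 CPM in knockout (-0.55 ± 0.14, adjusted p = 0.0981), and the lipid receptor Trem2 had 739, 888, 866 and 834 CPM (-0.02 ± 0.15).

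Igf1, a growth factor that tissue macrophages secrete, rose from 104 and 71.3 CPM to 186 and 170 CPM (0.94 ± 0.18, adjusted p = 0.0195). It was the only 1 of 9 growth factor genes tested to pass, and without the second wild type library its adjusted p was 0.115. Without the mixed cells the change was 0.80 (adjusted p = 0.0688), and after thinning to equal UMIs it was 0.51 (adjusted p = 0.547). In the 75 cells with under 2 genes of any dendritic or neutrophil list it was -0.66 (adjusted p = 0.927). Pdgfb, another growth factor gene of the list, had 58.5, 61.6, 48.4 and 62.6 CPM (-0.21 ± 0.19). Itgam, the CD11b integrin, rose from 44.5 and 38.4 CPM to 76.8 and 82.0 CPM (0.85 ± 0.19, adjusted p = 0.0456). It was the only 1 of 16 identity genes to pass (median 0.06), with 28.7% of its UMIs in the first knockout library from 1 cell, and without each gene's highest cell its adjusted p was 0.116. Without the second wild type library it was 0.153. Cd68 and Ms4a7 had changes of 0.04 ± 0.14 and -0.29 ± 0.13, and Itgax had 133 and 141 against 206 and 207 CPM (0.51 ± 0.15, adjusted p = 0.16).

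H2-M2, a nonclassical MHC class I gene, rose from 26.5 and 13.6 CPM to 69.0 and 120 CPM (2.11 ± 0.29, adjusted p = 0.00123). It came from few cells: 3.88% and 7.63% of wild type and 20.2% and 22.03% of knockout macrophages had a UMI, 1 cell gave 49.5% and 64.7% of the knockout UMIs, and it was at 0 in endothelial cells. Thinned to 2000 UMIs per cell the shares were 3.33%, 0.877%, 6.49% and 10.3%, and the change was 1.86 (adjusted p = 0.29). None of the 12 genes of the class I presentation list passed edgeR's test (3 at an unadjusted p under 0.05, 2 by DESeq2). B2m, the light chain of class I, had 2301, 1866, 1717 and 1805 CPM (-0.33 ± 0.14). H2-Q7, a class I gene with near-identical copies, fell from 72.6 and 81.7 CPM to 39.1 and 38.8 CPM (-1.07 ± 0.19, adjusted p = 0.0136). The costimulatory genes Cd86 and Cd83 had changes of -0.36 ± 0.16 and -0.41 ± 0.19, and 0 of 3 tested passed (2 at an unadjusted p under 0.05, 0 by DESeq2). Of the 12 class II pathway genes tested, 0 passed (1 at an unadjusted p under 0.05, 0 by DESeq2), with a median log2 change of 0.08.

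Immediate early genes, which respond quickly to stimulation and also to cell dissociation, included 2 that rose among 16 tested (median 0.40). Egr1 had 202 and 164 CPM in wild type and 292 and 522 CPM in knockout (1.05 ± 0.20, adjusted p = 0.0195), and Fosb had 29.6, 24.0, 49.1 and 118 CPM (1.51 ± 0.31, adjusted p = 0.0298). The second knockout library was the higher in both genes, and without it the adjusted p of Fosb was 0.115. Egr1 did not pass with library size only, a mean of at least 20 counts, 4 markers, thinning or the replicate block (adjusted p = 0.0522 to 0.186). Nor did it pass in the 75 cells with under 2 genes of any dendritic or neutrophil list (0.74, adjusted p = 0.895). Fos had 1268, 1126, 1432 and 2052 CPM (0.44 ± 0.15, adjusted p = 0.265). Both Egr1 and Fosb were also called higher in knockout beta cells, with log2 changes of 0.57 and 0.91, and were not called in endothelial cells. The difference between these cell types was tested for endothelial cells only, and neither gene passed there. Of 7 cytokine genes 0 passed (2 at an unadjusted p under 0.05, 0 by DESeq2). Il1b had 170, 238, 208 and 419 CPM (0.51 ± 0.23, adjusted p = 0.471), with the genotypes overlapping. Beta cells held an Il1b UMI in 25.1% and 19.97% of wild type and in 3.2% and 3.98% of knockout cells, and thinned to 2000 UMIs in 1%, 1%, 0.25% and 0.5%, against 14.2%, 20.2%, 14.3% and 37.9% of macrophages. The NF-kB list had 0 of 12 called (0 at an unadjusted p under 0.05, 0 by DESeq2). In the interferon response list 0 of 16 passed (3 at an unadjusted p under 0.05, 0 by DESeq2), with Irf7 at 32.0 and 32.0 against 51.9 and 48.5 CPM (0.57 ± 0.22).

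Sel1l, the targeted gene, had 29.6 and 32.0 CPM in wild type and 42.0 and 32.6 CPM in knockout macrophages, a log2 change of 0.20 ± 0.25 (adjusted p = 0.845), although the groups did not overlap. In beta cells, where the deletion is aimed, it had 34.1, 32.5, 43.0 and 43.6 CPM, and the fitted change, which also scales for composition, was -0.49 (adjusted p = 0.00134), so the sign there depends on the scaling. A 3′ count does not show which exons a transcript holds and is no check of the deletion. Of 23 ER chaperone and ERAD genes tested, 0 passed edgeR's test (5 at an unadjusted p under 0.05, 1 by DESeq2), with a median of 0.20. The ER chaperone Hspa5 (BiP) had 558, 614, 645 and 742 CPM (0.15 ± 0.14), and in beta cells its change was 0.90 (adjusted p = 0.000708). The disulfide isomerase Pdia6 had 379, 367, 539 and 512 CPM (0.41 ± 0.14, adjusted p = 0.279), and Calr, a lectin chaperone, 624, 600, 902 and 930 CPM (0.49 ± 0.14, adjusted p = 0.13). Calr was the gene DESeq2 called. Whether the macrophage and beta cell changes differ was not tested.

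Of the genes that fell, 5 are given here that were chosen after their values were seen, so they stand for no pathway. The ferritin heavy chain gene Fth1 had 87331 and 88890 CPM in wild type and 65755 and 48089 CPM in knockout, a log2 change of -0.71 ± 0.14 (adjusted p = 0.0247). It did not pass with library size only (adjusted p = 0.0617), after thinning (0.157), or in 6 other alternatives. The light chain gene Ftl1 overlapped between genotypes, at 45467, 41573, 43784 and 32327 CPM (-0.27 ± 0.14, adjusted p = 0.562). Peroxiredoxin Prdx1 had 9240, 8025, 6176 and 3650 CPM (-0.89 ± 0.20, adjusted p = 0.0474). Metallothionein Mt1, a metal and stress responsive gene, had 6881, 4960, 2766 and 3787 CPM (-0.95 ± 0.16, adjusted p = 0.0074). Gstm1, a glutathione transferase, fell from 99.9 and 86.5 to 47.7 and 51.1 CPM (-1.003 ± 0.18, adjusted p = 0.0113). Esd, an esterase, had 1485, 1303, 874 and 797 CPM (-0.82 ± 0.14, adjusted p = 0.00979). For these 5 genes both knockout libraries lay below both wild type libraries, as they did for 13.9% of all genes tested. Mt1 and Esd were also called lower in endothelial cells (-1.13 and -0.59) and in beta cells (-1.28 and -0.46), and Fth1 and Prdx1 in beta cells (-0.33 and -0.61). Scaled by the number of cells, Fth1 and Esd stood at 0.16 and 0.070 and Prdx1 and Mt1 at -0.026 and -0.021, so their fall is relative to the other RNA of the cell. Prdx1 lost its call in 9 alternatives. Among them were DESeq2, library size only (edgeR adjusted p = 0.107), a mean of at least 20 counts (0.105), 6 markers (0.057) and thinning (0.101). Of 20 lysosome and protease genes 0 passed edgeR's test (5 at an unadjusted p under 0.05, 1 by DESeq2), among them the cysteine protease inhibitor Cst3 at 5035, 5184, 3854 and 2815 CPM (-0.69 ± 0.16, adjusted p = 0.0551) and the protease Ctsb at 5168, 4710, 5183 and 4949 CPM (-0.05 ± 0.13).

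Dcstamp, a membrane protein needed for the fusion of macrophages and osteoclast precursors, fell from 58.5 and 50.4 CPM to 12.8 and 10.6 CPM (-2.28 ± 0.27, adjusted p = 0.000292). It was at 0 in endothelial cells of every library, and its highest cell gave 15.9% to 25.0% of a library's UMIs. Ms4a4a, a membrane protein of macrophages chosen after its values were seen, fell from 49.2 and 30.4 to 12.1 and 15.9 CPM (-1.60 ± 0.31, adjusted p = 0.0173) and was also at 0 in endothelial cells. H2afv, a histone variant gene, and Ppp2r5a, a regulatory subunit of protein phosphatase 2A, fell by 1.22 ± 0.24 and 1.02 ± 0.22 on the log2 scale. Ap1b1, an adaptor subunit of vesicle sorting, rose by 1.17 ± 0.26 (adjusted p = 0.0424), and by 0.74 without the second knockout library. It did not pass with library size only, a mean of at least 20 counts, 4 or 6 markers, thinning or the replicate block. Nor did it pass with mixed, cycling, or Ppy and Pyy rich cells each left out (edgeR adjusted p = 0.0527 to 0.312 over all these settings). Ppp2r5a did not pass with library size only, a mean of at least 20 counts, 4 markers or the replicate block. The same held with mixed or with Ppy and Pyy rich cells left out (edgeR adjusted p = 0.0526 to 0.237 over these settings). H2afv did not pass with library size only, a mean of at least 20 counts, 4 markers or thinning (adjusted p = 0.0505 to 0.429). Scaled by the number of cells, neither passed (-0.13 for Ppp2r5a and -0.31 for H2afv).

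**Figure D4:**
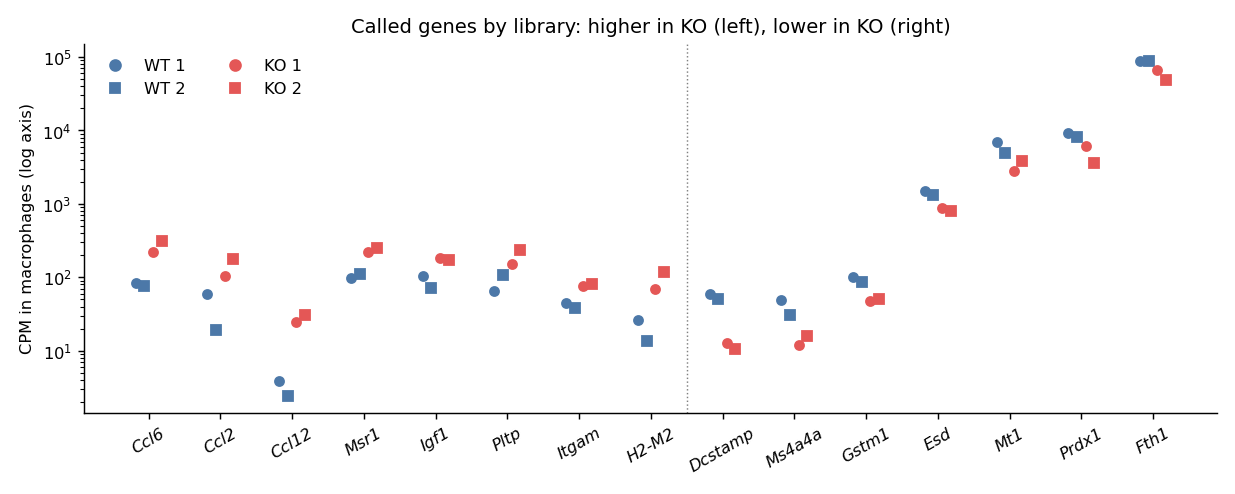
CPM in macrophages on a log axis for 8 called genes that were higher and 7 that were lower in knockout, 1 point per library. In every gene the 2 knockout (KO) libraries lie on the same side of the 2 wild type (WT) libraries; Ccl6 has 85.0 and 76.9 CPM in WT and 218 and 312 CPM in KO.

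Several called genes also moved in other cell classes. Gm42418, a noncoding transcript that overlaps AY036118 on the opposite strand of chromosome 17, had 973 and 894 CPM in wild type and 3069 and 3549 CPM in knockout macrophages (1.73 ± 0.13, adjusted p = 2.81e-06). AY036118 had 132, 140, 433 and 352 CPM (1.45 ± 0.17), and Lars2, a mitochondrial leucyl tRNA synthetase, 52.3, 42.4, 126 and 143 CPM (1.41 ± 0.17). Gm42418 and Lars2 were also called higher in knockout endothelial cells (0.88 and 1.33), and all 3 in beta cells (0.97, 0.70 and 0.88 in the order given). Reads of Gm42418 and AY036118 may not be separable where they overlap. Ribosomal protein genes, a list chosen after the calls were seen, had 8 higher and 1 lower among 79 tested (median 0.19), such as Rpl12 at 793, 739, 1317 and 1580 CPM (0.83 ± 0.14, adjusted p = 0.00657). Rpl29 was the 1 that fell, with 550, 588, 366 and 174 CPM (-1.13 ± 0.25, adjusted p = 0.0424), and it was called lower in endothelial and beta cells as well. In macrophages it lost its call in 8 alternatives. Among them were library size only, a mean of at least 20 counts, 4 or 6 markers, and no Ppy and Pyy rich cells (edgeR adjusted p = 0.058 to 0.237). Of 13 genes encoded in the mitochondrial genome, also chosen after the calls were seen, 3 were higher and 1 lower. mt-Co3 had 3723, 3608, 5816 and 5704 CPM (0.57 ± 0.12) and mt-Nd4l had 939, 709, 428 and 421 CPM (-1.04 ± 0.16). The depth per cell and the median mitochondrial share (2.82% and 2.69% in wild type, 3.47% and 3.44% in knockout macrophages) differed between the genotypes in the same libraries, and their part in these changes was not tested.

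Other calls moved with few cells or with RNA of other cell types. The endothelial list had 7 of 8 genes lower in knockout macrophages, with the vascular gene Egfl7 at 32.8 and 36.8 CPM in wild type and 0.711 and 0.881 CPM in knockout (-5.38 ± 0.51, adjusted p = 2.57e-05). In wild type 1 cell gave 59.5% and 91.3% of its UMIs. Without the mixed cells 1 of the 19 called genes that are highest in endothelial cells passed. Mgp, Gng11 and Thbs1, with log2 changes of -5.21, -3.31 and -1.51, belong to these 19. Iapp, the beta cell hormone amylin, had 624, 1114, 476 and 397 CPM in macrophages (-1.08 ± 0.22, adjusted p = 0.0262). It had 382 to 1767 CPM in endothelial cells, and without the second wild type library its adjusted p was 0.0762. Fn1, the fibronectin gene, had 1.56, 13.6, 221 and 27.3 CPM (4.01 ± 0.81, adjusted p = 0.0247), and 1 cell gave 97.1% of its UMIs in the first knockout library. C4b, a complement gene, had 1.56, 0.801, 18.5 and 9.69 CPM (3.42 ± 0.71), with 96.2% of the UMIs of the first knockout library from 1 cell. The globin gene Hba-a2, which has a near-identical copy, had 57.6 CPM in the first knockout library and 1.56 to 8.81 CPM in the others, beside 416 CPM in endothelial cells of the same library. Without that library its adjusted p was 0.734.

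A set of 18 genes passed in all of 8 alternative settings besides the first: RLE normalization, library size only, at least 6 markers, genes at least as high in macrophages as in beta cells, no mixed cells, no mixed, cycling or Ppy and Pyy rich cells, each gene's highest cell left out, and DESeq2. The settings were chosen for this count after the calls were seen, and the set does not hold in all others. With at least 4 markers 6 of the 18 passed, 9 with the replicate block, 10 after thinning and 13 with a mean of at least 20 counts. With sums scaled by cell number 16 passed, and 17 without Ppy and Pyy rich cells. In the 75 cells with under 2 genes of any dendritic or neutrophil list 0 passed. Not all fits with a library left out kept the 18. After thinning Msr1 and Lars2 were among those lost. The 18 were Ccl6, Msr1, Esd, Gm42418, AY036118, Lars2, Eef1g, 7 ribosomal protein genes (Rpl4, Rpl12, Rpl17, Rpl23a, Rps6, Rps12 and Rps15) and the mitochondrial genes mt-Co3, mt-Nd1, mt-Nd3 and mt-Nd4l. Of these, Ccl6 and Msr1 were at 0 in endothelial cells of every library. With the 5 cells that held 4 of the markers added, 14 genes passed in place of 74, and after thinning 14 of 2463 genes tested passed.

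**Figure D5:**
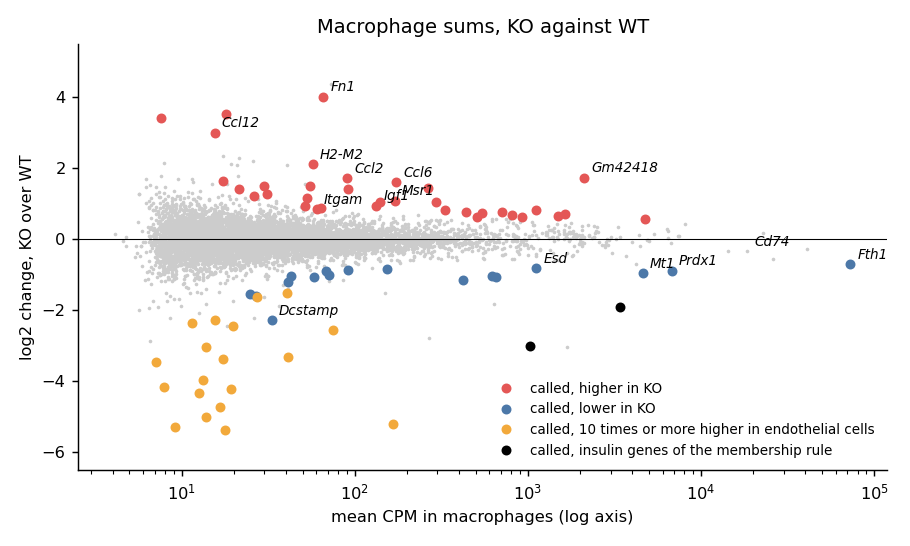
Mean CPM in macrophages on a log axis against the log2 change of knockout over wild type, for 7580 genes tested. Coloured points are the 74 called genes, with the 19 that are at least 10 times higher in endothelial cells in orange and Ins1 and Ins2 in black; Ccl6 stands at 1.61 and Fth1 at -0.71.

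The genotype effect differed between macrophages and endothelial cells for 23 of 9817 genes (0.234%) by an interaction test with the library as a block. For 21 of the 23 the macrophage change was the lower and for 2 the higher, a split that became 15 and 7 without the mixed cells, 27 and 11 without each gene's highest cell and 26 and 13 without the second wild type library, and 13 of the 23 were also among the 74 genes. Ptgs1, which encodes cyclooxygenase 1, had 25.7 and 26.4 CPM in wild type and 53.4 and 52.9 CPM in knockout macrophages (0.94 ± 0.22, adjusted p = 0.0692). In endothelial cells it went the other way, from 64.9 and 69.1 to 31.9 and 32.8 CPM (-1.11, adjusted p = 0.0142). The difference of the changes was 2.03 ± 0.27 (edgeR adjusted p = 0.0115), and without the mixed cells it was 2.07 (adjusted p = 0.0026).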

How the data were processed

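Per the labels, single-cell 3′ libraries were made from 4 islet samples, 2 per genotype. The authors deposited UMI counts of 19074 genes per cell. The submitters' processing notes name Cell Ranger 3.0.0, Seurat 2.3.4 and the mm10 genome, with no role stated. Library totals were 99156230 to 228515309 UMIs.

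Macrophages, endothelial cells (at least 5 of 8 markers and the same hormone limits) and beta cells (at least 20% insulin UMIs) were selected by rule, and UMIs were summed per library. Sums were tested with edgeR 4.0.16 (TMM scaling, filterByExpr and the quasi-likelihood test in R 4.3.3, called at a Benjamini-Hochberg adjusted p under 0.05), with DESeq2 1.42.0 as an alternative. The SE of a log2 change was its size divided by the square root of F, an approximation. Correlations, thinning and motif searches used Python 3.11.15, NumPy 2.4.6 and pandas 2.3.3, and figures matplotlib 3.10.9. The fits were tested on simulated data. Promoters are from RefSeq tables of GRCm38.p6 and gene coordinates from GENCODE vM21 (GRCm38).

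Members and lists were chosen with earlier results of these data known. Named genes are the class II and rule genes, the 10 called genes of either direction whose log2 change was largest, given 50 CPM or more where higher and no overlap of genotypes (without rule, sex-linked and mitochondrial genes), list members (the 4 highest and up to 3 called), the 20 highest ratios, the 5 smallest p each way of the interaction and Sel1l. Listed genes that are not in the tables used were not analysed here. The result of 1 listed gene is not reported here. Replicates of a genotype differed by more than sampling noise (chi-square per degree of freedom 4.22 and 4.18).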

Additional observations from a re-analysis of the deposited data

Results flagged for a closer look

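The genotype effect differed between macrophages and endothelial cells by the interaction test for 23 genes, of which those with the smallest p in each direction were Ptgs1, Aldh1a3, Egfl7, Flt1, Plvap, Kdr and Thbs1. The difference of log2 changes was 2.03 for Ptgs1. For Aldh1a3 the fitted value was 13.93, which depends on zeros in several libraries and is no bound; 1 macrophage of the second knockout library gave 100% of that library's Aldh1a3 UMIs, and the gene was listed at 0 in wild type macrophages. The endothelial genes had -5.08 for Egfl7, -4.53 for Flt1, -5.22 for Plvap, -4.77 for Kdr and -2.19 for Thbs1. None of these 5 was among the 22 genes that passed without the mixed cells.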

How the results depend on the processing

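Of 7580 genes, the 74 called became 41 with library size only, 4902 with sums scaled by cell number, 212 with no filter, 33 at a mean of at least 20 counts, 14 with at least 4 markers, 49 without mixed cells, 0 without cells holding 2 dendritic or neutrophil markers (of 1818 tested in the 29, 27, 14 and 5 cells that this leaves), 14 after thinning, 43 without Ppy and Pyy rich cells, 114 without mixed, cycling and Ppy and Pyy rich cells, 47 by DESeq2, and 156 to 269 when a library was left out (more with each of the 4 left out), where a lone library is assumed to vary like the other group. With the replicate number as a block 57 passed (21 higher, 36 lower). Same-numbered libraries did not deviate together (r = -0.098 over 7580 genes). That value sets the difference of the wild type libraries against the difference of the knockout libraries. It cannot show whether same-numbered libraries were paired in the experiment, and the labels give only the number. The 23 interaction genes became 15 with library size only, 12 with at least 6 markers, 14 with stromal cells in place of endothelial cells, 38 without each gene's highest cell, and 14 to 39 when a library was left out. Leaving out Ppy and Pyy rich cells, alone or with mixed and cycling cells, and each gene's highest cell were chosen after the data were seen, as was leaving out mixed cells in the interaction test. The cause of these moves was not tested.

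The share of macrophages differed by 0.0625 percentage points and by -1.10 among cells outside the beta class, with -0.157 to 0.282 when a library was left out. The class II sum differed by -909 CPM, by 265 CPM after thinning, by 290 UMIs per cell and by -3006 to 1188 CPM when a library was left out. Scaled by cell number, Cd74 passed in the opposite direction at a log2 change of 0.55 (adjusted p = 0.00625), and H2-Ab1, H2-Eb1 and H2-Aa passed at 0.97, 0.97 and 0.92. Without cells holding at least 2 genes of a dendritic or neutrophil list Cd74 was at 0.062. When a library was left out Cd74 was at -0.52 to -0.16, passing without the first knockout library, H2-Ab1 at -0.0029 to 0.16, H2-Eb1 at -0.021 to 0.18 and H2-Aa at -0.11 to 0.16.

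Over the other genes named and the alternatives run, 185 of 1856 values lost their call, 7 of them with a turned sign, 70 gained one, 12 of them with a turned sign, 36 turned sign with no change of call and 1565 kept sign and call. Scaled by cell number, the sign turned for B2m (0.57), H2-D1 (0.45), H2-K1 (0.75), Cd86 (0.53), Cd83 (0.49), Ms4a7 (0.61), Trem2 (0.87), Cd14 (0.57), Cst3 (0.18), Ctsb (0.85), Apoe (0.34), Cd36 (0.59), Pf4 (0.41), Pdgfb (0.69), Bst2 (0.55), Rel (0.64), Fth1 (0.16), Esd (0.070). Without cells holding at least 2 genes of a dendritic or neutrophil list, the sign turned for B2m (0.14), H2-K1 (0.17), Ms4a7 (0.19), Cd68 (-0.45), Cx3cr1 (-0.56), Mrc1 (-0.11), Folr2 (-1.31), Fcgr3 (-0.22), Ccl4 (-0.19), Igf1 (-0.66), Pltp (-0.50). With at least 4 markers, the sign turned for Pdgfb (0.0084), Rel (0.0082), Plvap (0.16), Kdr (0.91), Thbs1 (0.097). Without each gene's highest cell, the sign turned for Folr2 (-0.089), F13a1 (-0.047). With library size only, the sign turned for Trem2 (0.065), Ctsb (0.038). Without mixed cells, the sign turned for Folr2 (-0.0063). Without mixed, cycling and Ppy and Pyy rich cells, the sign turned for Folr2 (-0.041). After thinning, the sign turned for Pdgfb (0.041). When a library was left out the sign turned for H2-DMb1 (-0.080 to 0.52), H2-K1 (-0.30 to 0.0098), Ctsb (-0.14 to 0.039), Folr2 (-1.25 to 1.56), F13a1 (-6.08 to 2.52), Trem2 (-0.16 to 0.12), Cd68 (-0.11 to 0.18), Sel1l (-0.066 to 0.41), Sod2 (-0.089 to 0.36), Ifitm3 (-0.20 to 0.25). Depth limits the low genes, since thinning left 2463 genes to test.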

Other observations

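A small number of macrophages held transcripts of dividing cells. At least 2 genes of a cell cycle marker list were detected in 6 of the 390 macrophages, 5 in the first wild type library and 1 in the second knockout library. These cells held 5 to 7 of the genes, with 198 UMIs of the list in the 5 cells and 220 in the 1 cell, against 8, 8, 3 and 7 UMIs in all other macrophages of the 4 libraries, wild type first. None was found in the remaining libraries. Of 15 cell cycle genes tested between genotypes, 0 passed edgeR's test (1 at an unadjusted p under 0.05, 0 by DESeq2). A further 2 macrophages, both in the second wild type library, were rich in the pancreatic polypeptide gene Ppy or the peptide YY gene Pyy, and the endocrine secretory list summed to 9348 CPM there against 1434 to 1996 CPM in the other libraries.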
